A study of Drosophila montana and Drosophila virilis with 24 samples.

Results

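Drosophila genes for 6 ion channel proteins that set the electrical excitability of nerve and muscle were followed through cold treatments of 2 related flies, Drosophila montana and D. virilis. They are cac, slo, eag, Sh, tipE and Ork1, 6 of the 218 genes named on a custom array, and were found by an exact match of the gene name carried by each probe. Each array was hybridised with whole-body RNA from 1 pool of 10 mature females aged 20 days, and each group held 3 pools kept under 22 h of light and 2 h of darkness. In both species, acclimation meant 14 days as the controls and a further 6 days at 5°C, hardening meant 1 h at 0°C, and the controls stayed at 19°C. In D. montana 2 further groups were kept at -6°C for 16 h and sampled after 15 min or 1 h of recovery. That gives 15 arrays of D. montana in 5 groups and 9 arrays of D. virilis in 3 groups. No genotype or strain is given in the labels. Whole-body RNA mixes all tissues, so fewer cells of a type and less RNA per cell cannot be told apart in any value given here.

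Neurons and muscle fibres fire when voltage-gated sodium or calcium channels open and fall silent again as potassium channels let charge out. The roles given here are known from D. melanogaster. The gene cac (cacophony) encodes the pore-forming subunit of the calcium channel that triggers transmitter release at synapses, and tipE encodes a partner protein that raises the current through the sodium channel para. Among the potassium channels, Sh (Shaker) carries a fast voltage-gated current, slo (slowpoke) opens with voltage and calcium together, eag (ether-a-go-go) is voltage-gated, and Ork1 is a leak channel that helps to hold the resting potential. Cold disturbs the ion gradients on which these channels act, and chill coma, the reversible immobility of chilled insects, is the state from which the recovering flies were coming.

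The 6 genes differed in how well the array measured them. They were covered by 23 probe pairs, of which 18 passed in D. montana and 14 in D. virilis: the brighter orientation of the pair had to stand well above background in every pool of some group. A gene's level is the mean over its passing probes of log2 signal minus the 75th percentile of the array, so a level of 0 stands for the 75th percentile. The lowest signal well above background lay between 6.26 and 12.3 units across the 24 arrays. The 4 tipE probes had signals from 158 to 1879 units and the 3 Ork1 probes from 69.6 to 1175 units, far above that limit on all 24 arrays. The 6 cac probes fell into fragments of different kinds. Its 2 probes on fragment 3 (cac probes 1 and 5) read 33.8 to 153 units in D. montana and 11.1 to 34.2 units in D. virilis. On D. virilis arrays cac probe 1 was well above background on 7 of 9. The 4 probes on its fragment 4 read 1.41 to 3.83 units and were not well above background on any array. Of the slo probes, only slo probe 2 was well above background on all 24 arrays, at 20.1 to 88.6 units, while slo probe 1 passed on 2 of 9 and slo probe 3 on 7 of 9 D. virilis arrays. The eag probes were near background throughout: the 3 that passed in D. montana read 4.33 to 15.7 units there, the remaining probe was never well above background, and none passed in D. virilis, where eag was not measured. All 3 Sh probes passed in both species, with 9.34 to 14.2 units for Sh probe 2 in D. virilis as the dimmest readings.

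**Figure D1:**
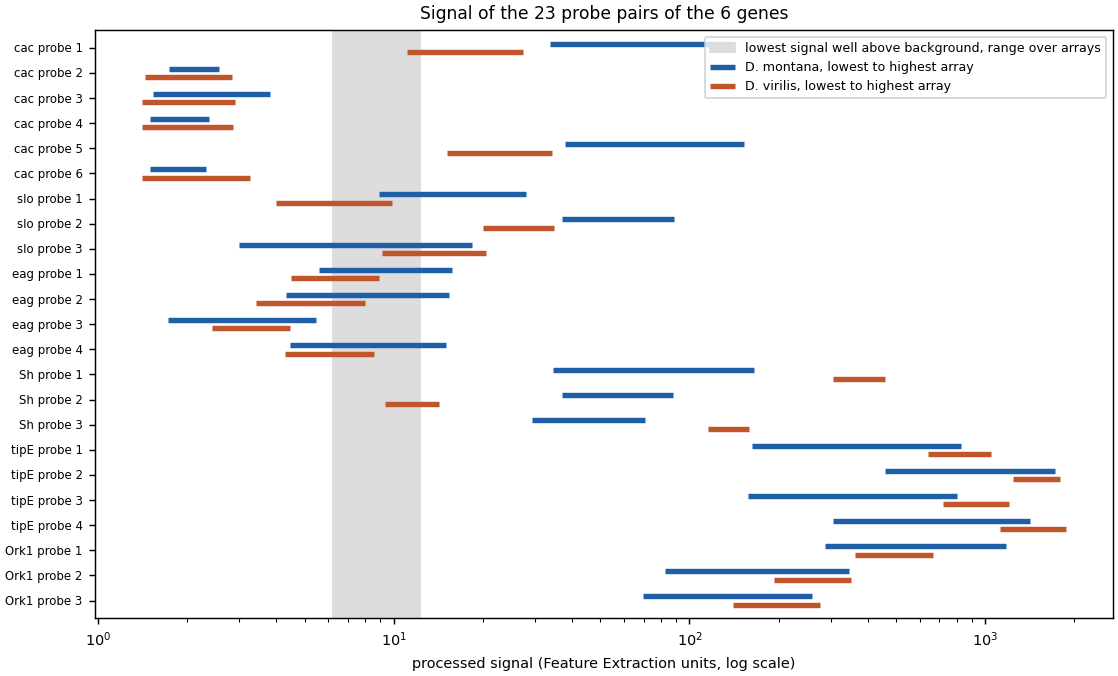
Processed signal (Feature Extraction units, log scale) of the brighter probe of each of the 23 pairs, with bars from the lowest to the highest array of each species (D. montana, 15 arrays; D. virilis, 9 arrays). The grey band spans 6.26 to 12.3 units, the lowest signal well above background across arrays; all 4 eag probes, 5 of the 6 cac probes, slo probes 1 and 3 and Sh probe 2 lie in or below it for part or all of their range.

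Several of these genes were lower after the long cold and early in recovery, and none passed the test after the short cold. After acclimation of D. montana 4 of 6 genes fell at an adjusted p under 0.05 (cac, slo, eag and Ork1), where 27.2% of the 213 genes measured passed and 17.4% fell. The call of eag is no support for this count, because 2 of its 3 passing probes met the filter on dim probes through the control group alone. After acclimation of D. virilis 3 of the 5 genes measured fell (cac, tipE and Ork1), where 42.2% of 211 genes passed and 24.6% fell. In D. montana 3 of 6 genes (cac, tipE and Ork1) fell 15 min into recovery, where 6.57% of 213 genes passed and 4.23% fell. No member passed in the other comparisons with control: 0 of 6 after 1 h of recovery, where 2.82% of genes passed, 0 of 6 after hardening of D. montana, where 0.469% passed, and 0 of 5 after hardening of D. virilis, where 0.474% passed. At an unadjusted p under 0.05 the counts of these last 3 comparisons were 3, 0 and 0 members, beside 34 of 213, 15 of 213 and 26 of 211 genes. No member passed as higher in any comparison with control. Treated and control pools did not overlap for 5 of 6 members after D. montana acclimation (45.5% of all genes), 6 of 6 at 15 min of recovery (34.7% of all genes), 4 of 6 at 1 h of recovery (25.4%) and 1 of 6 after hardening (23%). Of these, 4, 5, 3 and 1 were lower. Sh was the higher member after acclimation and at both times of recovery. The lower members include slo each time and eag except after hardening. Both genes include probes kept through the control group alone. Their part here and in the D. montana medians below is no support for a fall. In D. virilis treated and control pools did not overlap for 2 of 5 members after acclimation (50.7% of all genes) and 0 of 5 after hardening (17.1%). The median log2 change of the members was -0.54 after D. montana acclimation, -0.55 after 15 min of recovery, -0.36 after 1 h of recovery and -0.38 after D. virilis acclimation, beside medians over all measured genes of 0.007, 0.011, -0.049 and -0.048. After hardening it was -0.033 in D. montana and -0.092 in D. virilis, beside 0.032 and -0.066.

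**Figure D2:**
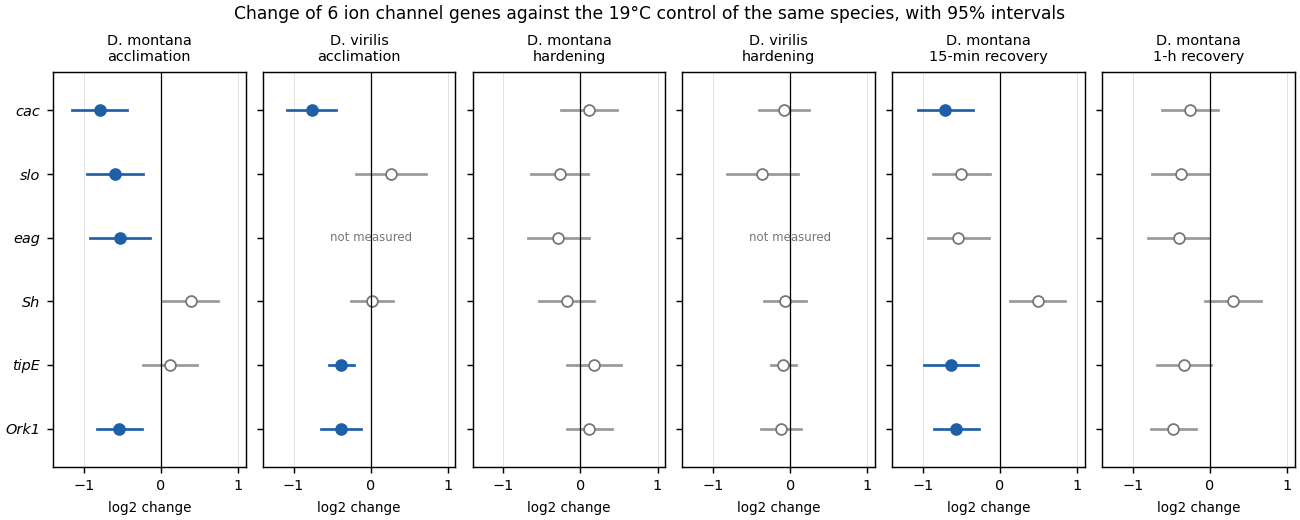
Log2 change of each gene against the 19°C control of the same species, with the 95% interval of the fit (3 pools per group). Filled points passed at an adjusted p under 0.05; all 10 of them lie below 0, and cac and Ork1 are filled in the same 3 panels.

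The calcium channel gene cac fell in both species after acclimation and in D. montana after 15 min of recovery. Its log2 levels in D. montana were -4.13, -3.73 and -3.39 after acclimation, against -2.95, -2.81 and -3.10 in control flies. All 3 acclimated pools lay below all 3 control pools, and the acclimated pools were the more spread out (SD 0.37 against 0.14). The change was -0.80 ± 0.17 (SE), a 1.74-fold lower level (95% interval -1.16 to -0.43, adjusted p = 0.00245). In D. virilis the levels were -5.79, -5.70 and -5.71 after acclimation, against -5.30, -4.60 and -4.98 in control flies. Here the controls were the more spread out (SD 0.049 after acclimation, against 0.35), and the groups again did not overlap. The change was -0.77 ± 0.15 (SE), a 1.70-fold lower level (adjusted p = 0.00205). The D. montana levels 15 min into recovery were -3.58, -3.64 and -3.77, all below the control pools, with a change of -0.71 ± 0.17 (adjusted p = 0.0259). At 1 h they were -3.25, -3.03 and -3.34, overlapping the control pools, and the change of -0.25 ± 0.17 did not pass (adjusted p = 0.469). Hardened pools had -2.60, -2.90 and -3.02 in D. montana and -4.96, -5.03 and -5.15 in D. virilis, both overlapping their controls (adjusted p = 0.777 and 0.844).

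The 2 cac probes behind these values gave like changes. After acclimation they changed by -0.83 and -0.76 in D. montana and by -0.80 and -0.73 in D. virilis, each past the test over single probes, which 21% of 860 probes passed in D. montana and 36.5% of 842 in D. virilis. In acclimated D. virilis cac probe 1 was well above background on only 1 of 3 arrays, so its change there rests partly on readings near background. After 15 min of recovery the 2 probes changed by -0.70 and -0.72, of which 1 passed, where 1.98% of probes did. Both acclimation calls of cac held when any 1 array was left out (adjusted p 0.00069 to 0.0163 in D. montana). With no filter on dim probes the 4 fragment 4 probes that were never above background enter the mean. No cac call against control then held: the changes were -0.19 after D. montana acclimation, 0.035 after 15 min of recovery and 0.090 after D. virilis acclimation. The 15-min call was lost without control replicate 1 or 2 or recovery replicate 2 or 3 (adjusted p 0.0720 to 0.120). With both probe orientations averaged, cac was no longer called after 15 min of recovery (-0.32, adjusted p = 0.147) or in D. virilis (-0.21, adjusted p = 0.0962). That mean takes in the dimmer probes of these 2 pairs, which were well above background on 0 arrays. In D. montana the order of cac from high to low was hardening, control, 1-h recovery, 15-min recovery and acclimation. Neighbouring groups in it overlapped except 1-h and 15-min recovery, whose difference of 0.46 ± 0.17 did not pass (adjusted p = 0.256).

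The sodium channel partner tipE fell early in recovery in D. montana and after acclimation in D. virilis. After 15 min of recovery its D. montana log2 levels were -0.42, -0.77 and -0.72, against 0.016, -0.057 and 0.048 in control flies. All recovering pools lay below all controls, with a change of -0.64 ± 0.17 (SE), a 1.56-fold lower level (adjusted p = 0.0305). After 1 h the levels were -0.044, -0.19 and -0.75. The pools were wide apart, the first of them overlapped the controls, and the change of -0.33 ± 0.17 did not pass (adjusted p = 0.347). Acclimated D. montana had 0.22, -0.011 and 0.17, overlapping the controls, with a change of 0.12 ± 0.17 (95% interval -0.23 to 0.47, adjusted p = 0.665). In D. virilis its levels were 0.33, 0.39 and 0.24 after acclimation, against 0.70, 0.66 and 0.75 in control flies. The groups did not overlap, and the change was -0.38 ± 0.074 (SE), a 1.30-fold lower level (adjusted p = 0.00240). Hardened pools had 0.35, 0.12 and 0.045 in D. montana and 0.56, 0.60 and 0.67 in D. virilis, each group overlapping its controls (adjusted p = 0.678 and 0.629).

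All 4 tipE probes passed singly after D. virilis acclimation, with changes from -0.44 to -0.25. After 15 min of recovery the 4 probes changed by -0.71 to -0.52 and none passed singly (adjusted p 0.0515 to 0.0603). The D. virilis call held when any 1 array was left out, while the 15-min call held only without recovery replicate 1 and was lost in the other 5 cases (adjusted p 0.0875 to 0.136). The order of tipE in D. montana was hardening, acclimation, control, 1-h recovery and 15-min recovery, and each neighbouring pair overlapped. In D. virilis it was control, hardening and acclimation, where control and hardening overlapped and hardening and acclimation did not.

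The leak channel gene Ork1 shared the pattern of cac calls. Its D. montana log2 levels were -1.94, -1.69 and -1.68 after acclimation, against -1.11, -1.35 and -1.24 in control flies. The groups did not overlap, and the change was -0.54 ± 0.14 (SE), a 1.45-fold lower level (adjusted p = 0.00958). After 15 min of recovery the levels were -1.63, -2.02 and -1.75, all below the controls, with a change of -0.57 ± 0.14 (adjusted p = 0.0259). After 1 h they were -1.58, -1.76 and -1.77. These too lay below all 3 controls, but the change of -0.47 ± 0.14 missed the threshold (adjusted p = 0.0985). In D. virilis the levels were -1.73, -1.69 and -1.45 after acclimation, against -1.46, -1.16 and -1.09 in control flies. The highest acclimated pool overlapped the lowest control pool, and the change was -0.39 ± 0.12 (SE), a 1.31-fold lower level (adjusted p = 0.0247). Hardened pools had -0.90, -1.20 and -1.26 in D. montana and -1.37, -1.46 and -1.24 in D. virilis, overlapping the controls (adjusted p = 0.758 and 0.713).

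The 3 Ork1 probes moved closely together. They changed by -0.55 to -0.51 after D. montana acclimation and by -0.44 to -0.35 after D. virilis acclimation, and all 3 passed singly both times. After 15 min of recovery they changed by -0.60 to -0.53, with adjusted p 0.0511 to 0.0515, and after 1 h by -0.48 to -0.47. Leaving out control replicate 1 took Ork1 out of the D. montana acclimation calls (adjusted p = 0.0523). Its 15-min call was lost without control replicate 1 or 3 or recovery replicate 2 or 3 (adjusted p 0.0713 to 0.134), and its D. virilis call without control replicate 2 or 3 or acclimation replicate 1 or 2 (adjusted p 0.0691 to 0.0997). In D. montana the order was hardening, control, 1-h recovery, acclimation and 15-min recovery, and only control and 1-h recovery did not overlap. In D. virilis it was control, hardening and acclimation, each overlapping the next.

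**Figure D3:**
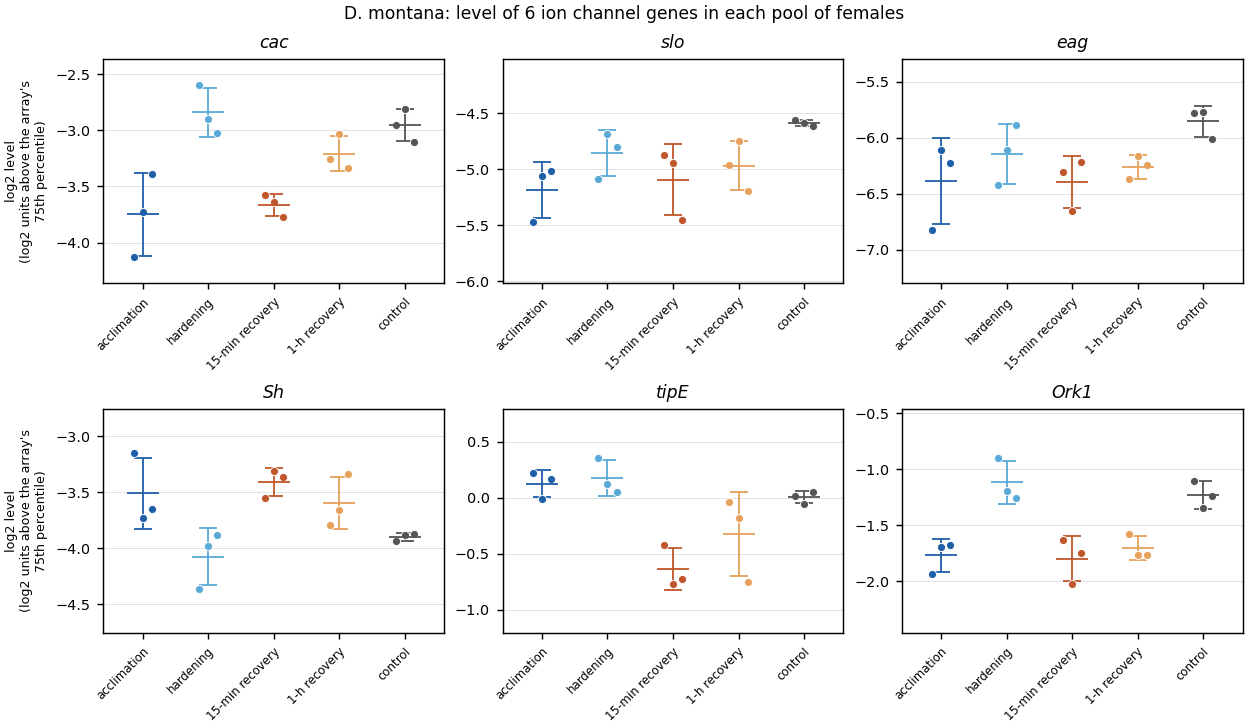
Log2 level of each gene (log2 units above the array's 75th percentile) in the 15 pools of D. montana, with the mean and SD of each group of 3; each panel spans 2 log2 units around its own middle. For cac and Ork1 the acclimation and 15-min recovery pools lie below every control pool, and for tipE only the 15-min recovery pools all do.

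The calcium-activated potassium channel gene slo fell after acclimation in D. montana and did not pass in D. virilis. Its D. montana log2 levels were -5.47, -5.06 and -5.02 after acclimation, against -4.57, -4.59 and -4.61 in control flies. The control pools were nearly level with each other (SD 0.25 after acclimation, against 0.023), and the groups did not overlap. The change was -0.59 ± 0.17 (SE), a 1.51-fold lower level (adjusted p = 0.0202). Recovering pools had -4.88, -4.95 and -5.45 at 15 min and -4.96, -4.75 and -5.19 at 1 h, and hardened pools -5.08, -4.69 and -4.80. Every one of these 9 pools also lay below every control pool, but the changes of -0.50, -0.38 and -0.27 did not pass (adjusted p = 0.0812, 0.291 and 0.590). In D. virilis slo had -4.80, -5.19 and -5.10 after acclimation, -5.38, -5.57 and -6.03 after hardening, and -5.64, -4.88 and -5.38 in control flies. The control pools spanned nearly the whole range of the acclimated ones, and neither the change of 0.26 ± 0.21 after acclimation (95% interval -0.20 to 0.72, adjusted p = 0.344) nor that of -0.36 ± 0.21 after hardening (adjusted p = 0.492) passed.

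The slo probes agreed less well. After D. montana acclimation they changed by -0.76, -0.44 and -0.57, and only slo probe 1 passed singly (adjusted p = 0.0196). After 15 min and 1 h of recovery slo probe 3, which was well above background on 9 of 15 D. montana arrays, changed by -0.93 and -0.85, while the brightest probe, slo probe 2, changed by -0.15 and -5.7e-05. In D. montana slo probe 3 met the filter through the control group alone, and with a strict filter, which keeps only probes well above background on every array of the species and drops it, slo changed by -0.60 after acclimation (adjusted p = 0.0200), -0.29 at 15 min and -0.15 at 1 h of recovery (adjusted p = 0.271 and 0.675). The D. montana acclimation call was lost without any 1 of the control replicates or acclimation replicate 1 (adjusted p 0.0505 to 0.0909), and with both probe orientations averaged (-0.14, adjusted p = 0.569). In D. virilis that averaging called slo as higher after acclimation (0.41, adjusted p = 0.0176). From high to low the D. montana order was control, hardening, 1-h recovery, 15-min recovery and acclimation. Control stood apart from hardening, and the other neighbours overlapped.

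The potassium channel gene eag was measured in D. montana only and close to background. Its log2 levels were -6.83, -6.11 and -6.23 after acclimation, against -5.78, -5.77 and -6.01 in control flies. The groups did not overlap, acclimation replicate 1 was the lowest pool, and the fitted change was -0.53 ± 0.19 (SE, adjusted p = 0.0450). Recovering pools had -6.31, -6.66 and -6.22 at 15 min and -6.37, -6.16 and -6.25 at 1 h, and hardened pools had -6.42, -6.11 and -5.89. Recovering pools were all below the controls, with changes of -0.54 and -0.41 that did not pass (adjusted p = 0.0812 and 0.291), while hardened pools overlapped the controls (-0.29, adjusted p = 0.590). The 3 passing probes were well above background on all 3 control arrays, and for eag probes 2 and 4 no other group met the filter. A probe kept through the group where it is high is likely to be lower elsewhere, so the fitted change and its p describe eag and give no support for a fall. On the acclimated arrays eag probe 4 was never well above background. With its level there raised to at least the lowest signal well above background, it was 1.30-fold lower than in control flies. After 15 min of recovery eag probes 2 and 4 were likewise not well above background on any array. Raised in this way, they were 1.18-fold and 1.23-fold lower. Both probes were kept through the control group alone, so these folds give no support for a fall either. The adjusted p of these 3 differences (0.0225 for the first, 0.0515 and 0.147 for the others) comes from the fit on the measured values and not from the raised ones. The acclimation call of eag was lost without any 1 of the control replicates (adjusted p 0.0572 to 0.136). It was also lost without acclimation replicate 1, when the change was -0.31 (adjusted p = 0.219). With both probe orientations averaged it was -0.093 (adjusted p = 0.725) and in the authors' deposited value table -0.52 (adjusted p = 0.0914). The strict filter left no eag probe.

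The potassium channel gene Sh lay above control in 3 of the D. montana treatments but did not pass against control. Its D. montana log2 levels were -3.15, -3.73 and -3.65 after acclimation, -3.55, -3.31 and -3.37 at 15 min of recovery, -3.80, -3.66 and -3.34 at 1 h of recovery, and -3.94, -3.88 and -3.87 in control flies. All 9 of these treated pools lay above all 3 controls. The changes were 0.39 ± 0.17, 0.49 ± 0.17 and 0.30 ± 0.17 (adjusted p = 0.107, 0.0812 and 0.385). Hardened D. montana had -4.36, -3.99 and -3.88, overlapping the controls (-0.18, adjusted p = 0.675). In D. virilis all groups overlapped: -3.21, -3.09 and -3.21 after acclimation, -2.97, -3.24 and -3.53 after hardening, and -3.22, -3.19 and -3.14 in control flies. The D. virilis change after acclimation was 0.012 ± 0.12 (95% interval -0.26 to 0.28, adjusted p = 0.963). The Sh probes of its separate fragments did not move alike in acclimated D. montana. Sh probes 1 and 3, on the first fragment, changed by 0.80 and 0.46, while Sh probe 2, on the other, changed by -0.10, and none passed singly.

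**Figure D4:**
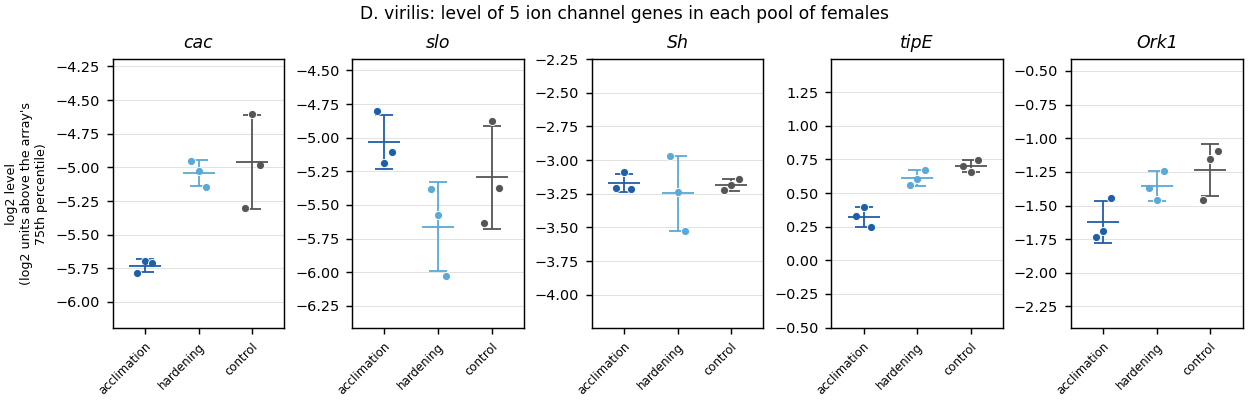
Log2 level of the 5 genes measured in the 9 pools of D. virilis, with the mean and SD of each group of 3; each panel spans 2 log2 units. The acclimated pools lie below every control pool for cac and tipE, and overlap the controls for slo, Sh and Ork1.

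**Figure D5:**
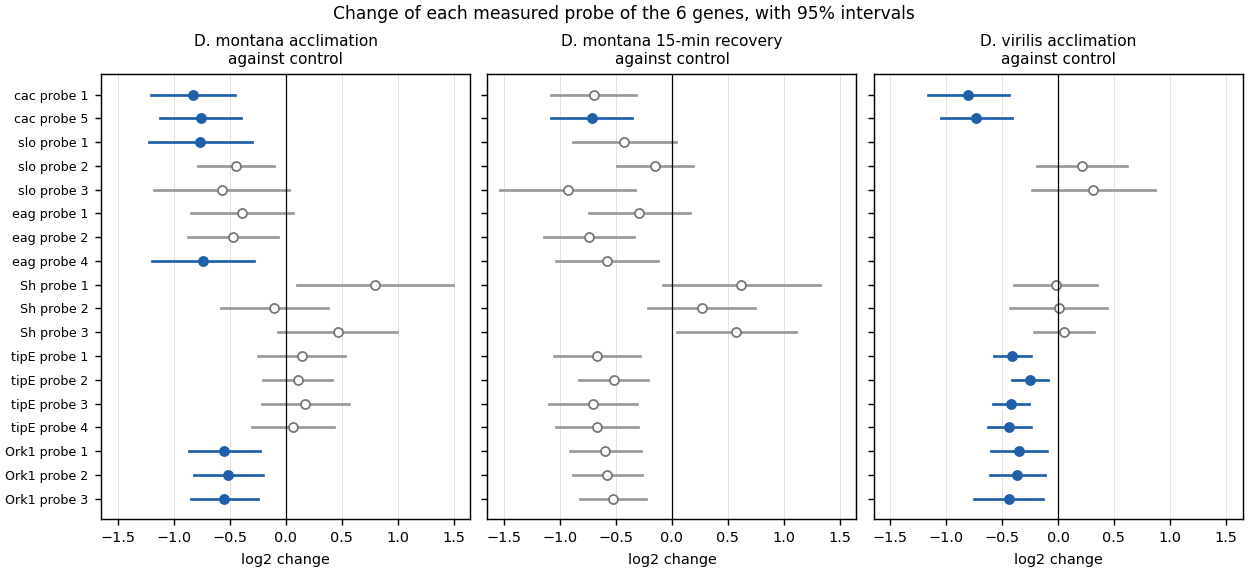
Log2 change of each passing probe against control, with 95% intervals, after D. montana acclimation, D. montana 15-min recovery and D. virilis acclimation. Filled points passed at an adjusted p under 0.05 over all single probes; the cac, tipE and Ork1 probes of a gene move alike, and those of slo and Sh spread more.

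Treatments were also set against each other directly. In D. montana 3 of 6 members differed between acclimation and hardening, where 25.4% of genes passed. The difference was -0.91 ± 0.17 for cac (adjusted p = 0.000956), -0.65 ± 0.14 for Ork1 (adjusted p = 0.00266) and 0.56 ± 0.17 for Sh (adjusted p = 0.0251). Ork1 was at -0.41 with spike-in scaling (adjusted p = 0.254), cac at -0.19 with no filter on dim probes (adjusted p = 0.291), and with both orientations averaged cac was at -0.44 and Sh at 0.36 (adjusted p = 0.0520 and 0.171), all without a call. The Sh difference was lost without hardening replicate 1 or acclimation replicate 1 (adjusted p = 0.0980 and 0.106). Its probes did not move alike: Sh probes 1 and 3 differed by 1.08 and 0.61, and Sh probe 2, on the other fragment, by -0.0018. Only Sh probe 1 passed the test over single probes (adjusted p = 0.0293). Between acclimation and 15 min of recovery 1 of 6 differed, where 31% of genes passed: tipE was 0.76 ± 0.17 higher in acclimated flies (adjusted p = 0.00277), and this held when any 1 array was left out. Between acclimation and 1 h of recovery 1 of 6 differed, where 22.1% of genes passed, with cac at -0.54 ± 0.17 (adjusted p = 0.0307). That call was lost with spike-in scaling (-0.33, adjusted p = 0.359), in the authors' deposited value table (-0.40, adjusted p = 0.171), and without acclimation replicate 1 or 2 or recovery replicate 1 or 2 (adjusted p 0.0524 to 0.155). Between 1 h and 15 min of recovery 0 of 6 differed in the limma fit, where 1.88% of genes passed. At an unadjusted p under 0.05 it was 1 member, beside 18 of 213 genes. In D. virilis 3 of 5 members differed between acclimation and hardening, where 32.7% of genes passed: cac by -0.69 ± 0.15 (adjusted p = 0.00477), tipE by -0.29 ± 0.074 (adjusted p = 0.0131) and slo by 0.63 ± 0.21 (adjusted p = 0.0383). The slo difference was lost in the deposited value table (adjusted p = 0.0613), with the strict filter (adjusted p = 0.0501) and with no filter (adjusted p = 0.0927). It was kept without hardening replicate 1 and lost without any 1 of the other 5 arrays (adjusted p 0.0504 to 0.132). The tipE difference was lost without acclimation replicate 3 (adjusted p = 0.0556), with spike-in scaling (adjusted p = 0.208) and with both orientations averaged (-0.16, adjusted p = 0.0798). That of cac was lost with both orientations averaged (-0.15, adjusted p = 0.220) and turned to 0.22 with no filter.

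The acclimation responses of the species were compared in 1 fit over all 24 arrays, as the D. montana change minus the D. virilis change, for the 5 genes measured in both. None of the 5 differed at an adjusted p under 0.05, where 12.9% of 209 genes did. An unadjusted p under 0.05 was reached by 2 members, beside 48 of 209 genes. For cac the difference was -0.028 ± 0.24, with a 95% interval of -0.52 to 0.46. For Ork1 it was -0.15 ± 0.18, with an interval of -0.54 to 0.23, and for Sh it was 0.37 ± 0.22, with an interval of -0.087 to 0.83. The difference was 0.50 ± 0.20 for tipE (interval 0.097 to 0.91, adjusted p = 0.0994). For slo it was -0.77 ± 0.27 (interval -1.34 to -0.21, adjusted p = 0.0641), over the 2 slo probes that passed in both species. Of these, slo probe 3 met the filter through the control group alone in each species, and its part in the difference is no support for it. The slo difference passed without D. virilis control replicate 2 (-0.98, adjusted p = 0.0234). So tipE fell in D. virilis and slo in D. montana at the threshold, but neither response was shown to differ between the species. The hardening responses also gave 0 of 5, where 0.478% of genes passed. At an unadjusted p under 0.05 they gave 0 members, beside 35 of 209 genes. Most of the probe names carry the prefix Dmon, and a probe can match the species unequally, so no level is compared between them.

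Array brightness differed between treatments, and its part in these results was not tested. The 75th percentile used for scaling ran from 481 to 678 units on the 15-min recovery arrays, below the 699 to 847 units of the D. montana controls, and from 662 to 753 units on the acclimation arrays. It was lower still on the 1-h recovery arrays, at 413 to 583 units, where no member was called. Scaled on the spike-in probes instead, D. montana acclimation kept 1 of its 4 calls (cac, -0.74, adjusted p = 0.0264), 15-min recovery 1 of its 3 (cac, -0.83, adjusted p = 0.0440) and D. virilis acclimation 1 of its 3 (cac, -0.77, adjusted p = 0.000658). All the called members kept their direction under that scaling. With normexp background correction 0 members were called in any comparison. Its offset of 50 units is above the signals of every eag probe and below those of every tipE and Ork1 probe. The cause of the lost calls was not tested. Slides held all groups of a species, and every called member had the same sign on all 3 slides. The changes were larger on slide 1 for D. montana acclimation, with -1.18, -0.63 and -0.58 for cac, -0.91, -0.45 and -0.43 for slo, -1.04, -0.10 and -0.46 for eag, and -0.83, -0.45 and -0.33 for Ork1 on slides 1 to 3.

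A list of other channels and pumps held 11 genes of the array. Of these, 1 fell and 0 rose after D. montana acclimation, where 27.2% of all genes passed: ort, a histamine-gated chloride channel of visual synapses, at -0.56 ± 0.16 (adjusted p = 0.0178). Of the 10 measured in D. virilis, 2 passed after acclimation, where 42.2% of all genes did: ort fell (-0.69 ± 0.11, adjusted p = 0.000721) and nan (nanchung), a channel of hearing neurons, rose (0.39 ± 0.11, adjusted p = 0.0172). After hardening in either species and in recovery none of them passed. The sodium channel para, whose partner is tipE, changed by 0.25 ± 0.22 after D. montana acclimation and by 0.0065 ± 0.22 after 15 min of recovery, and did not pass (adjusted p = 0.452 and 0.982). The list's median change was -0.071 after D. montana acclimation and -0.056 after D. virilis acclimation.

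Of 6 genes of synapses and neurons, 1 rose and 2 fell after acclimation in each species, where 27.2% (D. montana) and 42.2% (D. virilis) of all genes passed. No other treatment gave a call against control. The gene shi, which encodes the dynamin of vesicle recycling, rose by 0.50 in D. montana (adjusted p = 0.0222) and by 1.21 in D. virilis (adjusted p = 4.2e-06). Caki, a scaffold kinase of the synapse, fell in both (-0.46 and -0.61, adjusted p = 0.0189 and 0.000440). Gad1, which makes the transmitter GABA, fell in D. montana (-0.60, adjusted p = 0.0448), and Csp, a chaperone of synaptic vesicles, fell in D. virilis (-0.24, adjusted p = 0.0492).

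Of 11 nerve markers listed, the array carried only syt and Csp. Their summed log2 level was 0.039 to 0.66 on the 15-min recovery arrays and 0.25 to 0.70 on the 1-h recovery arrays, both below the 0.77 to 0.94 of the D. montana controls, and 0.84 to 1.05 after acclimation. In D. virilis it was 0.95 to 1.20 after acclimation and 1.14 to 1.19 after hardening, against 1.21 to 1.39 in control flies. The sum lay below all controls in both treatments in which tipE fell, and also at 1 h of recovery and after D. virilis hardening, where tipE did not pass. After D. virilis acclimation the 2 markers did not move alike: Csp fell, syt did not, and their median change was -0.10. The part of this sum in the tipE result was not tested. Summed over 2 muscle markers the level was 6.59 to 7.14 at 15 min of recovery and 6.80 to 7.16 after acclimation, against 6.70 to 6.83 in D. montana controls, and 6.34 to 6.67 after acclimation, against 5.76 to 6.10 in D. virilis controls. The array carried 13 of 14 eye markers, whose summed level overlapped control in each D. montana treatment, and none of the listed ovary or glia markers. In D. virilis the eye sum was 7.07 to 7.31 after acclimation, against 6.76 to 7.05 in control flies.

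For each member with a call that was measured in both species, the genes with the most similar profile were sought among 209, by the root mean square difference of log2 deviations from the control mean over the 24 arrays. The nearest profile to cac was that of Ork1 (0.248 log2 units, against a median of 0.545 over all genes), followed by Caki (0.268). The genes nearest to Ork1 were homer, a scaffold of synapses (0.194), and Caki (0.197), with a median of 0.448. The gene nearest to tipE was Csp (0.143), followed by tws, a phosphatase subunit (0.154), with a median of 0.433. For slo they were ninaC, a myosin of photoreceptors (0.232), and Dr, a homeobox factor (0.270), with a median of 0.457. These distances describe profiles that share the same arrays and controls.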

How the data were processed

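The 24 one-colour (Cy3) arrays were deposited as Agilent scanner output. Spot intensity values had been processed by the authors with Feature Extraction 10.7.1.1, which subtracted the background and detrended each array by itself, per the file headers. The same files hold the flags for spots well above background and for outlying spots, and the outlying ones were dropped. Labelling used 600 ng of total RNA per pool, per the labels' protocols. A table of intensity values that the authors also deposited, on a scale that no source here explains, served as an alternative after log2 transformation, with rows taken as probes in name order.

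Each of 925 probe pairs is represented by the orientation that was brighter over all arrays, a choice made after the files were seen. The array's 75th percentile was subtracted from log2 signals, and the passing probes of a gene were averaged, giving 213 genes for D. montana, 211 for D. virilis and 209 for the species comparison. From 72.2% to 83.1% of the spots of an array passed as well above background. Models were fitted with limma 3.58.1 (lmFit, eBayes; R 4.3.3) on 15, 9 or 24 arrays, and Benjamini-Hochberg adjusted p-values, taken over every gene tested in a comparison, were called under 0.05. The code was tested on simulated data. Replicates are separate pools per the labels, and 3 per group limit the precision.

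The 6 genes and the lists of other genes were chosen with earlier results of these data known. Named beside the 6 are up to 4 called genes of a list and comparison, and the 2 nearest profiles of each called member. The gene para, the sodium channel that tipE partners, and the markers syt and Csp fall outside that rule and were named after their values were seen. Alternatives were spike-in scaling, normexp correction, no filter on dim probes, a strict filter, both orientations averaged, the deposited table, replicate or slide as a block, and each array left out. The strict filter and the slide block were added after seeing the data. The planned normexp correction was run on median spot signals, since the scanner output holds no mean signals. Replicate numbers were not taken to pair the samples. Same-numbered arrays correlated at -0.47 to 0.55 in their deviations from group means (median 0.015), which does not exclude an effect shared by some of them.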

Additional observations from a re-analysis of the deposited data

How the results depend on the processing

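For the 6 genes, 50 single changes were followed: each change against control, each species difference after acclimation, and the direct or species hardening differences with an unadjusted p under 0.05, a limit chosen after seeing the data. Direction and side of the threshold were kept by 47 of the 50 with the replicate block, 48 with the slide block, 44 in the deposited value table, 43 with no filter on dim probes, 38 with both orientations averaged, 35 with spike-in scaling and 21 with normexp. The strict filter kept 45 of the 46 it could measure, and 281 of 330 fits that left out 1 array kept both. Where no cause is named, the cause was not tested.

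The larger changes in the counts of called members were as follows, and counts that moved less are left out. Spike-in scaling gave 1 after D. montana acclimation, 1 after 15 min of recovery, 1 after D. virilis acclimation and 0 between acclimation and 1-h recovery. Over all genes it gave 27, 5 and 36 in the first 3, with 14, 0 and 23 of these higher, against 21 of 58, 5 of 14 and 37 of 89 in the scaling used here. It gave 4 genes after D. virilis hardening and 4 for the species difference after acclimation. It moved the median of all genes by more than 0.1 only in D. montana, to -0.15 after hardening, -0.11 at 15 min and -0.20 at 1 h of recovery. Normexp left 0 members in every comparison, with 14, 0, 1 and 2 genes called after D. montana acclimation, hardening, 15-min and 1-h recovery, 16 and 0 after D. virilis acclimation and hardening, and 0 for the species difference after acclimation. Averaging both orientations gave 2 members after D. montana acclimation, 1 each between acclimation and hardening of either species, and 0 genes after D. virilis hardening. After D. virilis acclimation it lost cac and called slo, as higher. No filter gave 1 member between acclimation and hardening of D. virilis. Averaging both orientations moved the median of all genes to 0.13 at 15 min and 0.12 at 1 h of recovery. The deposited table gave 0 between acclimation and 1-h recovery, 1 (slo) for the species difference and 2 genes after D. virilis hardening. In it 2 of 12 calls were higher at 15 min of recovery, and the median of all genes was -0.12 at 1 h.

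Values that changed sign were these. With spike-in scaling the D. montana hardening changes were -0.074 for cac, -0.074 for Ork1 and -0.016 for tipE, that of Sh in D. virilis was 0.0043, and the species difference of cac was 0.029. With normexp the D. montana changes were 0.011 for eag after acclimation, 0.36 for cac, 1.03 for eag and 0.83 for slo at 15 min, and 0.76 for cac, 1.37 for eag, 0.064 for Ork1 and 1.18 for slo at 1 h. The D. virilis acclimation changes with normexp were -0.45 for Sh and -0.71 for slo, the slo difference from hardening was -0.37, and the species differences were 0.50 for cac, 0.11 for Ork1 and 0.58 for slo. With no filter cac was at 0.035 at 15 min, 0.22 at 1 h, 0.090 after D. virilis acclimation and 0.22 against D. virilis hardening. Averaged orientations gave -0.014 for cac after hardening, and 0.095 for eag and 0.059 for slo at 1 h, all in D. montana. In the deposited table Sh was at 0.028 after D. virilis hardening.

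The replicate block called Ork1 at 1 h of recovery (1 member, adjusted p = 0.0474), added tipE between acclimation and 1-h recovery (2 members), and called slo for the species difference (1 member, adjusted p = 0.0491). It changed no other call of a member. Over all genes it gave 27 at 15 min and 13 at 1 h of recovery and 3 after D. virilis hardening. Only 6 of 24 arrays correlated best with their own number, which does not settle whether the numbers pair the samples. The blocked counts are therefore given as an alternative and not as a measure of the strength of the effect. The slide block gave 1 member at 1 h of recovery and 2 between acclimation and 1-h recovery, with 30, 14 and 3 genes in those 3 all-gene counts.

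With 1 array left out, the counts of called members ran from 1 to 4 after D. montana acclimation, 0 to 4 at 15 min of recovery, 2 to 3 after D. virilis acclimation, 2 to 3 between acclimation and hardening of D. montana, 0 to 1 between acclimation and 1-h recovery, 1 to 3 between acclimation and hardening of D. virilis, and 0 to 1 for the species difference after acclimation. Counts over all genes ran from 34 to 46 after D. montana acclimation, 0 to 2 after its hardening, 1 to 32 at 15 min and 6 to 7 at 1 h of recovery, 59 to 95 and 0 to 6 after D. virilis acclimation and hardening, and 20 to 29 for the species difference. The hardening change of cac ran from -0.0085 to 0.20 in D. montana and from -0.25 to 0.097 in D. virilis, that of Sh in D. virilis from -0.20 to 0.079 after hardening and from -0.028 to 0.035 after acclimation, and the species difference of cac from -0.21 to 0.16.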

Other observations

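The dimmer probe of a pair was left out of the values above. For some pairs of these genes it was well above background: on all 24 arrays for the 3 Ork1 pairs and Sh probe 1, on 23 for slo probe 2 and on 22 and 23 for tipE probes 2 and 4. For every other pair it was well above background on 0 arrays, so that averaging both orientations of such a pair takes in background readings. The dimmer Ork1 probes changed by -0.51 to -0.47 after D. montana acclimation and by -0.37 to -0.29 after D. virilis acclimation, beside -0.55 to -0.51 and -0.44 to -0.35 for the brighter ones. Of these, 1 dimmer probe passed, that of Ork1 probe 2 after D. virilis acclimation (-0.29 ± 0.09, adjusted p = 0.0418). The dimmer slo probe rose after D. virilis acclimation (0.79 ± 0.14, adjusted p = 0.00132 over 570 dimmer probes), where the brighter probe of the same pair changed by 0.21 ± 0.18 (adjusted p = 0.399). After D. montana acclimation the dimmer slo probe changed by 0.45 ± 0.25 and did not pass (adjusted p = 0.375 over 615 dimmer probes), beside -0.44 for the brighter one. The dimmer tipE probes changed by 0.017 and -0.17 after D. virilis acclimation, beside -0.25 and -0.44 for the brighter probes of those pairs. They changed by -0.10 and 0.035 at 15 min of recovery, where the brighter probes of those pairs changed by -0.52 and -0.67.

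A further channel gene on the array, na (narrow abdomen), a sodium leak channel known from D. melanogaster, was outside the lists and was chosen after its values were seen. In D. montana it was higher after acclimation than after hardening by 1.28 ± 0.31 (adjusted p = 0.00579), than at 15 min of recovery by 1.09 (adjusted p = 0.0140) and than at 1 h of recovery by 1.49 (adjusted p = 0.00253). Its change against control after acclimation was 0.68 ± 0.31 and did not pass (adjusted p = 0.115).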
